A study of Mus with 15 samples.

Results

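The 45 genes described here are a list of G2 and mitosis genes, chosen by symbol and followed across 5 gates of sorted mouse thymocytes. All 45 were found among the 55573 genes of the deposited count table, and all 45 were among the 16069 genes that passed the filter on low counts and were tested. Levels are given as CPM, read pairs counted for a gene scaled to a common library size, on library sizes scaled by edgeR's TMM method. Differences are log2 fold changes ± standard error from edgeR's quasi-likelihood test, and a gene is called changed at a Benjamini-Hochberg adjusted p under 0.05 over all genes tested.

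A cell that has copied its DNA passes through G2, where cyclin A and cyclin B bring the kinase CDK1 to full activity, and then builds a spindle, attaches each chromosome to it through the kinetochores, and divides. Transcripts of the proteins that do this work are made mostly from S phase to mitosis and are low in cells that have left the cycle, so their sum in a bulk sample moves with the share of dividing cells. In the thymus, most division takes place before and around the double-positive stage, and newly made CD4 single-positive cells, the stage at which regulatory T cells (Tregs) arise, divide little. In bulk samples, fewer cycling cells and less of a transcript in each cycling cell cannot be told apart.

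RNA came from thymocytes of female C57Bl/6 x Foxp3-GFP mice, 6 weeks old, a strain in which a green fluorescent protein reports FOXP3, the transcription factor that defines Tregs. All 5 gates were TCRb+CD4+CD8-, live and CD73-, so CD73-positive cells, which include recirculating mature T cells, were left out of all gates. The 4 Bst2- gates were conventional CD4 single-positive (CD4SP) cells (CD25-Foxp3-), CD25+ Treg progenitors (CD25+Foxp3-), FOXP3lo Treg progenitors (CD25-Foxp3lo) and mature Tregs (CD25+Foxp3+). The fifth gate held Bst2+ cells positive for either or both of CD25 and FOXP3. Each gate had 3 libraries, numbered 40, 42 and 43 and given in that order throughout. The labels name 3 biological replicates of a single sort experiment and do not state whether a replicate is 1 mouse or a pool, so p-values measure the spread between these samples.

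The libraries held 10816064 to 23758157 counted read pairs. Foxp3 averaged 0.951 CPM in conventional cells, 3.20 in the CD25+ gate, 290.0 in the FOXP3lo gate and 598 in mature Tregs, the order of the labels. Il2ra, which encodes CD25, averaged 9.07, 289, 107 and 1152 CPM in the same order, so the FOXP3lo gate, sorted as CD25-, held more of it than conventional cells. All 10 markers of CD4SP T cells were present in every gate. The Bst2+ libraries stood apart. Their summed markers of macrophages and dendritic cells reached 669 to 1294 CPM, against at most 8.38 in any other library, and their summed B cell markers 8.43 to 54.2 CPM against at most 4.86. Markers of double-positive and immature thymocytes summed to 1248 to 1950 CPM in Bst2+ libraries, 511 to 591 in the CD25+ gate, 296 to 353 in conventional cells, 292 to 332 in mature Tregs and 266 to 284 in the FOXP3lo gate. Bst2 itself averaged 28.1 ± 19.2 CPM in Bst2+ libraries and 12.2 to 15.1 in the other gates.

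Across the 5 gates the list without Smc4 ordered the samples in 3 tiers. The summed level of the 44 members other than Smc4, which is set apart below, was 1311, 1148 and 1319 CPM in conventional libraries and 1248, 1013 and 989 in the CD25+ gate. It was 534, 520.1 and 548 CPM in FOXP3lo progenitors and 553, 464 and 505 in mature Tregs. Bst2+ libraries held 2852, 3037 and 2653 CPM. Conventional cells and CD25+ progenitors overlapped with each other, FOXP3lo progenitors and mature Tregs overlapped with each other, and the 3 tiers did not overlap. The sum of all 45, Smc4 included, did not give these tiers. It averaged 1945 CPM in conventional cells, 1944 in the CD25+ gate, 3191 in FOXP3lo progenitors, 2367 in mature Tregs and 3968 in Bst2+ cells. The gate with the highest mean was Bst2+ for 42 of 45 members, FOXP3lo for Smc4 and Cenpa, and conventional for Espl1. The gate with the lowest mean was mature Treg for 23 members and FOXP3lo for 19.

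**Figure D1:**
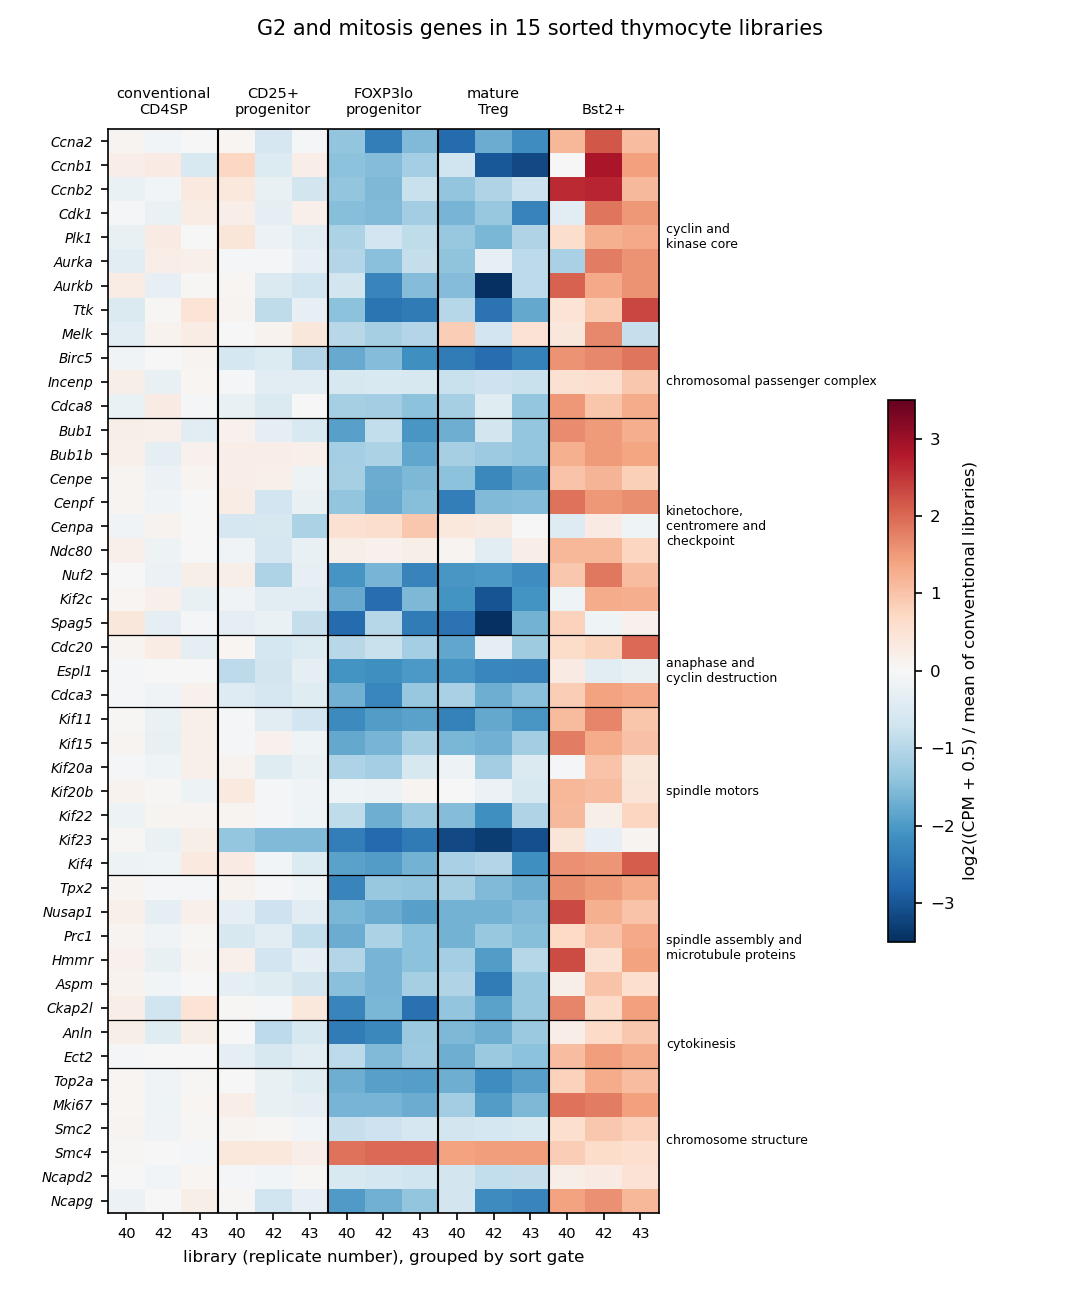
Colour gives log2 of (CPM + 0.5) minus the gene's mean over the 3 conventional libraries, for 45 genes (rows, grouped by role) in 15 libraries (columns, 3 per gate). Most rows are blue in FOXP3lo progenitors and mature Tregs and red in Bst2+ cells, while Smc4 is red in all gates but the conventional one.

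FOXP3lo progenitors held less of this program than conventional cells. Of the 45 members 32 were called lower and 2 higher (median log2 fold change −1.57, against −0.02 over all genes tested), where 3.83% of all genes tested were called lower and 4.88% higher. The 3 FOXP3lo libraries lay below all 3 conventional libraries for 41 members and above for 2, against 19.9% and 18.9% of all genes. The members not called were Kif20a, Kif20b, Ccnb1, Ccnb2, Cdk1, Aurka, Aurkb, Plk1, Ndc80, Cdc20 and Melk. Of these 11, 10 had a log2 fold change under 0, from −1.74 for Ccnb1 to −0.07 for Kif20b, and Ndc80 stood at 0.18. In a fit without the Bst2+ libraries, whose replicates are far apart, 39 members were called lower and 2 higher, with 12.3% of genes called lower and 12.8% higher. Of the 11 members above, Ccnb1, Aurkb, Kif20b and Ndc80 were those still not called there.

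Mature Tregs were low as well. Against conventional cells, 31 members were called lower and 1 higher (median −1.56), where 5.73% of all genes were called lower and 6.45% higher. Their libraries lay below all conventional libraries for 38 members and above for 1 (20.1% and 19.2% of genes). Without the Bst2+ libraries 37 were called lower and 1 higher, with 15.3% and 15.1% of genes called. The comparisons with conventional cells share the same 3 conventional libraries.

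CD25+ progenitors, in contrast, kept levels near those of conventional cells. Against conventional cells 2 members were called lower, Kif23 and Cenpa, and 1 higher, Smc4 (median −0.25), where 5.66% of all genes were called lower and 5.98% higher. The libraries did not overlap for 8 members that were lower and 2 that were higher, against 20.3% and 20% of all genes. The median was below 0, with 36 of 45 members under 0. Without the Bst2+ libraries 4 members were called lower and 1 higher, with 14.3% and 14.7% of genes called.

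Set against each other, the gates that carry CD25 or FOXP3 parted along the same tiers. CD25+ progenitors exceeded FOXP3lo progenitors in 30 members and were lower in 2, Smc4 and Cenpa (median 1.39), where 9.93% of all genes were called higher and 9.17% lower. The libraries did not overlap for 40 higher and 3 lower members (24.9% and 24.4% of genes). Mature Tregs were lower than CD25+ progenitors in 28 members and higher in 2, again Smc4 and Cenpa (median −1.41, with 6.26% of genes called lower and 6.78% higher). Without the Bst2+ libraries the counts of these comparisons were 37 higher and 3 lower (19.9% and 19.7% of genes), and 35 lower and 2 higher (16.8% and 15.9% of genes). The libraries of mature Tregs lay below those of CD25+ progenitors for 36 members and above for 2 (21.2% and 19.3% of genes). Between mature Tregs and FOXP3lo progenitors 1 member was called, Smc4, which was lower (median −0.09, with 2.21% of genes called lower and 2.51% higher). In that comparison 2 members were called lower with the replicate number as a block, the second being Kif23, and 3 lower and 1 higher without the Bst2+ libraries (9.29% and 9.37% of genes). The libraries of the 2 FOXP3+ gates did not overlap for 5 lower and 1 higher members (15.9% and 15.4% of genes).

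The cyclins and kinases that start mitosis had log2 fold changes under 0 in both FOXP3+ gates against conventional cells, apart from Melk in mature Tregs. In FOXP3lo progenitors against conventional cells 2 of 9, Ccna2 and Ttk, were called lower over 15 libraries (3.83% of all genes). Without the Bst2+ libraries 7 of 9 were called lower (12.3% of all genes). In mature Tregs the counts were 3 and 6 (5.73% and 15.3% of all genes). In conventional cells, Ccna2, which encodes the cyclin of S phase and G2, measured 16.8, 14.7 and 15.4 CPM. It measured 16.2, 10.1 and 15.2 CPM in CD25+ progenitors, 5.65, 2.51 and 5.04 in FOXP3lo progenitors, and 2.00, 4.36 and 3.04 in mature Tregs. The FOXP3lo and mature Treg libraries all lay below the conventional and CD25+ libraries. Ccna2 changed by −1.83 ± 0.37 in FOXP3lo progenitors (adjusted p = 0.00377) and by −2.31 ± 0.38 in mature Tregs (adjusted p = 0.000437) against conventional cells.

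Cdk1, the mitotic kinase that cyclins A and B activate, measured 7.93, 6.93 and 9.91 CPM in conventional cells and 9.61, 6.36 and 9.32 in the CD25+ gate. In FOXP3lo progenitors it measured 2.59, 2.46 and 3.23 CPM, and in mature Tregs 2.33, 2.98 and 1.23. The lower pair of gates did not overlap with the higher pair, yet the test called Cdk1 lower in mature Tregs (−1.92 ± 0.50, adjusted p = 0.0163) and not in FOXP3lo progenitors (−1.58 ± 0.49, adjusted p = 0.0574) against conventional cells. The difference between these FOXP3+ gates was itself not called (−0.34 ± 0.50, adjusted p = 0.929). The spread that the test uses for Cdk1 is shared with the Bst2+ libraries, which measured 6.23, 31.3 and 24.5 CPM, and without them Cdk1 was called lower in FOXP3lo progenitors too (adjusted p = 0.000192).

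Ccnb1 and Ccnb2 encode the B-type cyclins that bind CDK1 for entry into mitosis. Ccnb2 measured 5.50, 6.18 and 8.46 CPM in conventional cells, 8.63, 5.40 and 4.02 in the CD25+ gate, 2.25, 1.90 and 3.67 in the FOXP3lo gate, and 2.25, 2.91 and 3.75 in mature Tregs. Ccnb1 measured 4.77, 4.99 and 2.61 CPM in conventional cells and 1.15, 1.06 and 1.48 in FOXP3lo progenitors, and 1 mature Treg library had no count. For both cyclins the FOXP3lo libraries lay below all conventional libraries, but neither was called over 15 libraries (adjusted p = 0.0670 for Ccnb2 and 0.389 for Ccnb1). Ccnb2 was called without the Bst2+ libraries (adjusted p = 0.00340), and Ccnb1 was not (adjusted p = 0.148). Near-identical copies of Ccnb1 exist in the mouse genome and pairs that align ambiguously were not counted, so its level is uncertain.

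Plk1, Aurka and Aurkb encode kinases of mitotic entry, of the spindle poles and of the chromosomes. Plk1 averaged 6.75 ± 1.43 CPM in conventional cells, 6.58 ± 2.23 in the CD25+ gate, 3.40 ± 0.602 in the FOXP3lo gate and 2.39 ± 0.557 in mature Tregs (n = 3 each), and was called lower in mature Tregs against conventional cells (−1.49 ± 0.40, adjusted p = 0.0209). Aurka averaged 5.56 ± 1.36, 4.94 ± 0.474, 2.32 ± 0.594 and 2.92 ± 1.33 CPM in the same 4 gates, and Aurkb 5.99 ± 1.18, 4.57 ± 1.46, 2.06 ± 1.45 and 1.55 ± 1.47 (n = 3 each). Over 15 libraries neither Aurora kinase was called in the 6 comparisons among these 4 gates. Aurka was, without the Bst2+ libraries, called lower in FOXP3lo progenitors than in conventional cells (−1.25 ± 0.38, adjusted p = 0.0106) and than in CD25+ progenitors (adjusted p = 0.0184), and Aurkb was not called. Ttk, the kinase also called MPS1 that starts the spindle checkpoint, fell by 2.81 in FOXP3lo progenitors against conventional cells (± 0.78, adjusted p = 0.0315), which was the lowest log2 fold change of the 45 members. Melk, a kinase of dividing cells with no settled role in mitosis, followed no tier: it measured 9.74, 3.05 and 7.57 CPM in mature Tregs and 3.84, 5.66 and 6.20 in conventional cells, which overlapped.

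Of the chromosomal passenger complex, which corrects faulty attachments and moves to the midzone for cytokinesis, Birc5 (survivin) showed the widest separation. It measured 11.3, 12.5 and 13.2 CPM in conventional cells and 7.83, 8.73 and 5.82 in the CD25+ gate. It measured 3.28, 3.97 and 2.41 CPM in FOXP3lo progenitors and 1.83, 1.52 and 2.01 in mature Tregs. The 4 gates did not overlap, stepping down from conventional cells to mature Tregs. The last step, from FOXP3lo progenitors to mature Tregs, was not called over 15 libraries (−0.85 ± 0.28, adjusted p = 0.119). Without the Bst2+ libraries 0 of the 4 genes of this complex were called in that comparison. Birc5 fell by 1.93 in FOXP3lo progenitors (± 0.27, adjusted p = 0.000124) and by 2.78 in mature Tregs (± 0.29, adjusted p = 2.63e-06) against conventional cells. Against conventional cells its value in CD25+ progenitors, −0.72 ± 0.26, was not called over 15 libraries (adjusted p = 0.0888) and was called without the Bst2+ libraries (adjusted p = 0.0436). The scaffold Incenp differed less: it averaged 53.9 ± 8.83 CPM in conventional cells and 36.3 ± 0.569 in FOXP3lo progenitors (n = 3 each; −0.57 ± 0.15, adjusted p = 0.0244). Cdca8, or borealin, fell by 1.39 in FOXP3lo progenitors (± 0.33, adjusted p = 0.0132) and stood at −1.0 ± 0.33 in mature Tregs (adjusted p = 0.0608, and 0.00733 without the Bst2+ libraries).

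The spindle checkpoint holds anaphase until all chromosomes are attached. Of 10 kinetochore and checkpoint genes, 8 were called lower and 1 higher in FOXP3lo progenitors against conventional cells (median −1.66). Of all genes, 3.83% were called lower and 4.88% higher. Bub1b, whose product BUBR1 is part of the checkpoint complex, measured 26.7, 18.4 and 26.0 CPM in conventional cells, 27.5, 27.7 and 26.7 in the CD25+ gate, 9.97, 10.7 and 6.25 in the FOXP3lo gate, and 10.2, 9.48 and 8.93 in mature Tregs. Cenpe, a kinetochore motor, measured 34.1, 27.6 and 34.2 CPM in conventional cells, 37.2, 36.0 and 28.2 in the CD25+ gate, 14.1, 9.16 and 10.4 in the FOXP3lo gate, and 11.4, 6.23 and 8.16 in mature Tregs. For both genes the last 2 gates lay wholly below the first 2.

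Cenpf, a large protein of the outer kinetochore, averaged 43.4 ± 3.29, 38.4 ± 12.4, 14.7 ± 1.94 and 12.3 ± 4.05 CPM in conventional, CD25+, FOXP3lo and mature Treg libraries (n = 3 each). Bub1, the checkpoint kinase, averaged 6.36 ± 1.45, 5.33 ± 1.5, 1.89 ± 1.13 and 2.51 ± 1.16 CPM in the same gates. Against conventional cells in FOXP3lo progenitors, Bub1b changed by −1.41 ± 0.21, Cenpe by −1.51 ± 0.23, Cenpf by −1.57 ± 0.24 and Bub1 by −1.75 ± 0.47, all called. Nuf2 and Ndc80 encode partners in 1 complex that grips microtubules, and their transcripts differed: Nuf2 fell by 2.19 (± 0.38, adjusted p = 0.00104), while Ndc80 measured 24.0, 18.8 and 21.6 CPM in conventional cells and 24.5, 23.7 and 24.7 in FOXP3lo progenitors, which overlapped (0.18 ± 0.21, adjusted p = 0.817). Ndc80 measured 19.6, 13.98 and 17.6 CPM in CD25+ progenitors, below all FOXP3lo libraries, a difference not called over 15 libraries (adjusted p = 0.103) and called without the Bst2+ libraries (−0.51 ± 0.17, adjusted p = 0.0137). It was higher in Bst2+ cells than in conventional cells (1.04 ± 0.21, adjusted p = 0.00136).

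Cenpa, the histone H3 variant that marks the centromere, went the other way from most members. It measured 24.4, 28.8 and 26.7 CPM in conventional cells and 17.6, 17.7 and 12.02 in the CD25+ gate. It measured 38.6, 41.2 and 51.8 CPM in FOXP3lo progenitors, 34.2, 33.2 and 27.0 in mature Tregs, and 19.4, 32.3 and 24.0 in Bst2+ cells. All FOXP3lo libraries lay above all libraries of the other 4 gates, and all CD25+ libraries below those of the other 3 Bst2- gates. Cenpa was 1.47 ± 0.22 lower in CD25+ than in FOXP3lo progenitors (log2 fold change −1.47, adjusted p = 9.32e-05), a call that held in each of 11 alternative fits and 15 fits that each left out 1 library. Against conventional cells it was −0.76 ± 0.22 in CD25+ progenitors (adjusted p = 0.0301) and 0.72 ± 0.21 in FOXP3lo progenitors (adjusted p = 0.0456). These 2 calls are near the threshold: they held in 9 and 4 of the 15 fits without 1 library, and the second did not pass once the replicate number was a block (adjusted p = 0.0511), while without the Bst2+ libraries both had smaller adjusted p (0.000141 and 0.000202). Hjurp, the chaperone that loads CENP-A at the centromere, did not share the rise of Cenpa in FOXP3lo progenitors. Hjurp averaged 196 ± 6.92 CPM in conventional cells, 149.7 ± 10.2 in the CD25+ gate, 153 ± 2.16 in the FOXP3lo gate and 115 ± 6.76 in mature Tregs (n = 3 each). Like Cenpa, it was called lower in CD25+ progenitors than in conventional cells (−0.39 ± 0.11, adjusted p = 0.0322).

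Of the genes that trigger anaphase, Espl1, which encodes separase, the protease that cuts the cohesin between sister chromatids, had replicates close together in 3 gates. It measured 11.6, 12.1 and 12.1 CPM in conventional cells, 6.10, 7.42 and 9.37 in the CD25+ gate, 2.42, 2.29 and 2.58 in the FOXP3lo gate, and 2.50, 2.08 and 2.01 in mature Tregs. Espl1 fell by 2.29 in FOXP3lo progenitors (± 0.36, adjusted p = 0.000411) and by 2.44 in mature Tregs (± 0.36, adjusted p = 0.000164) against conventional cells. In Bst2+ cells it measured 14.7, 9.06 and 9.90 CPM and overlapped with conventional cells, unlike 35 of the 45 members. Cdc20, the activator of the anaphase-promoting complex, averaged 6.98 ± 1.56 CPM in conventional cells and 3.27 ± 0.529 in FOXP3lo progenitors (n = 3 each) and was not called over 15 libraries (−1.09 ± 0.49, adjusted p = 0.232), but was without the Bst2+ libraries (adjusted p = 0.0218). Cdca3, which helps to destroy the WEE1 kinase, fell by 1.92 (± 0.37, adjusted p = 0.00266).

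Among the spindle motors, 7 of 9 were called lower in FOXP3lo progenitors and 7 of 9 in mature Tregs against conventional cells (medians −1.57 and −1.62). Of all genes, 3.83% and 5.73% were called lower in these comparisons. Kif11, the motor that pushes the spindle poles apart, measured 47.5, 39.2 and 52.1 CPM in conventional cells, 44.8, 35.4 and 29.0 in the CD25+ gate, 9.33, 11.4 and 12.1 in the FOXP3lo gate, and 8.58, 12.9 and 10.8 in mature Tregs. It fell by 2.08 in FOXP3lo progenitors (± 0.23, adjusted p = 9.94e-06) and by 2.1 in mature Tregs (± 0.23, adjusted p = 5.28e-06). Kif15, which backs up Kif11, averaged 22.8 ± 3.52 CPM in conventional cells and 7.67 ± 1.85 in FOXP3lo progenitors, and Kif4, a chromosome-borne motor, 10.7 ± 2.37 and 2.63 ± 0.345 (n = 3 each). Kif22 and Kif2c were called lower as well, at −1.34 ± 0.36 and −2.22 ± 0.52 in FOXP3lo progenitors. The exceptions were Kif20a and Kif20b, motors of the midzone: Kif20b averaged 36.8 ± 3.82, 38.5 ± 7.28, 35.02 ± 3.88 and 30.9 ± 6.08 CPM in conventional, CD25+, FOXP3lo and mature Treg libraries (n = 3 each), and Kif20a, at −0.97 ± 0.36 in FOXP3lo progenitors, missed the threshold (adjusted p = 0.119) and passed it without the Bst2+ libraries (adjusted p = 0.00421).

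Kif23 was the one member that already differed strongly in CD25+ progenitors. It encodes MKLP1, the motor subunit of centralspindlin, which bundles the midzone microtubules and recruits the cytokinesis machinery. Kif23 measured 61.8, 50.8 and 69.5 CPM in conventional cells and 23.0, 20.2 and 20.3 in the CD25+ gate. It measured 10.8, 8.77 and 10.4 CPM in FOXP3lo progenitors, 6.33, 5.54 and 6.73 in mature Tregs, and 80.5, 49.3 and 64.1 in Bst2+ cells. The 4 Bst2- gates did not overlap and stepped down in the order given, whereas Bst2+ and conventional libraries overlapped. Against conventional cells, Kif23 changed by −1.52 ± 0.19 in CD25+ progenitors (adjusted p = 3.09e-05), by −2.60 ± 0.20 in FOXP3lo progenitors (adjusted p = 2.30e-07) and by −3.29 ± 0.21 in mature Tregs (adjusted p = 7.78e-09). The first of these was called in all 11 alternative fits and all 15 fits without 1 library. From FOXP3lo progenitors to mature Tregs the value was −0.69 ± 0.20, not called over 15 libraries (adjusted p = 0.0652), but called with the replicate number as a block (−0.69, adjusted p = 0.0353) and without the Bst2+ libraries (adjusted p = 0.00288). Its partner in centralspindlin, Racgap1, averaged 15.7 ± 3.30 CPM in conventional cells and 17.3 ± 2.61 in the CD25+ gate (n = 3 each), a difference of 0.14 ± 0.31 that was not called (adjusted p = 0.910).

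**Figure D2:**
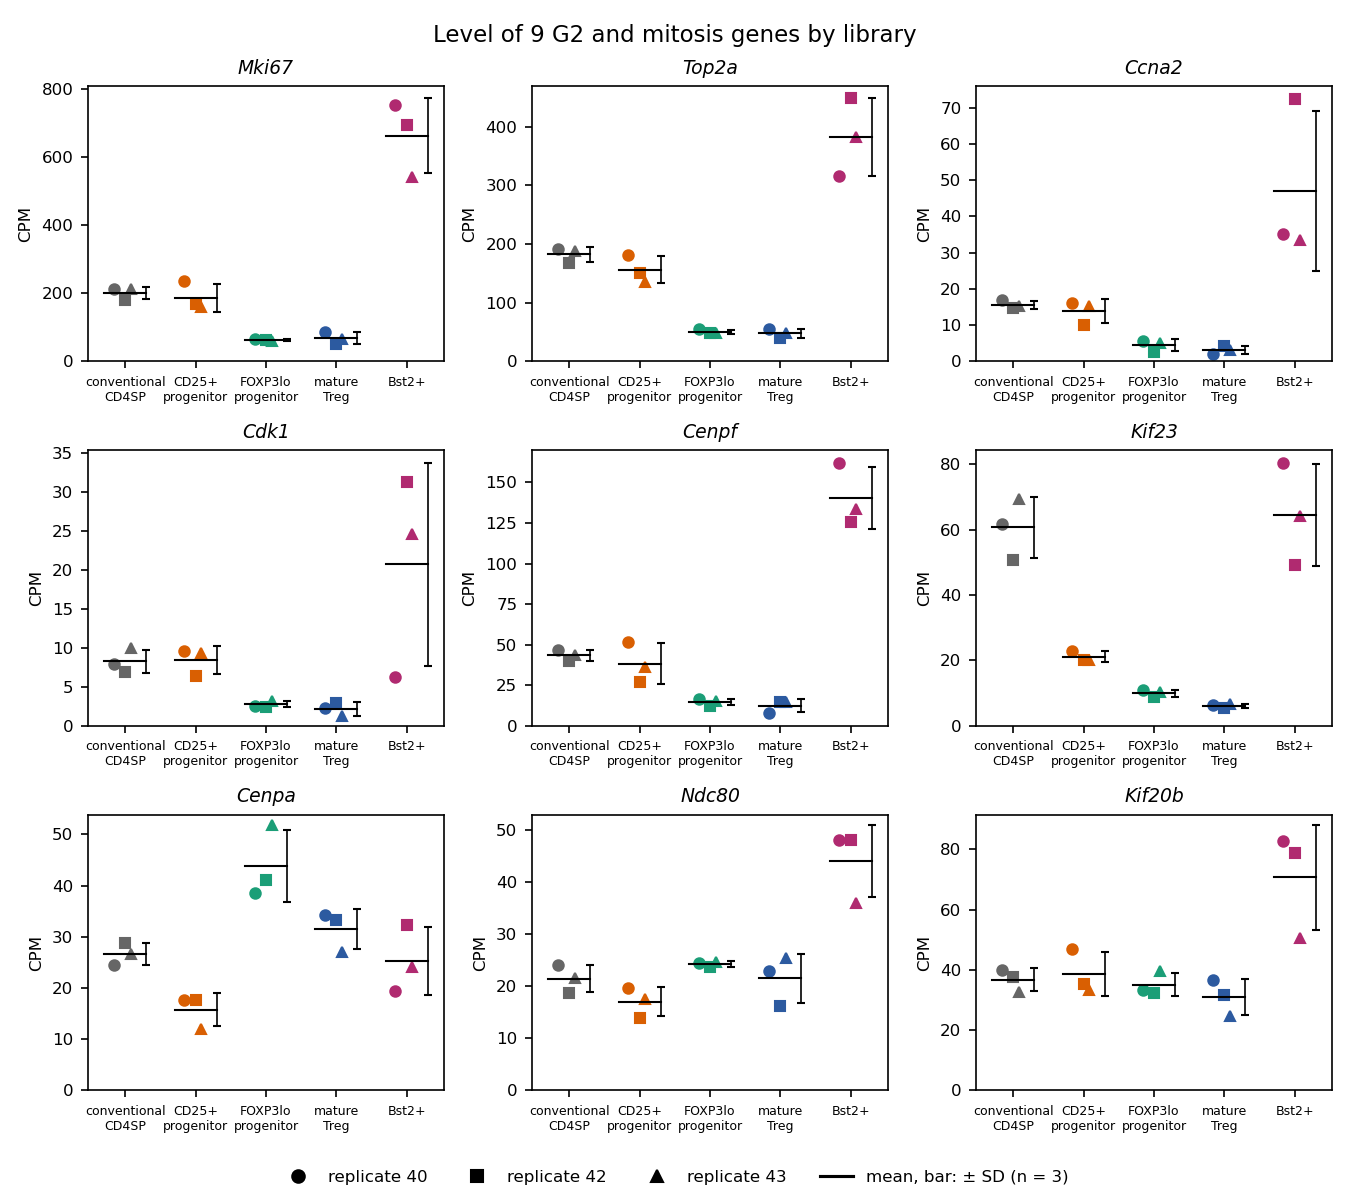
CPM of 9 genes in each library (points, shape by replicate number) for the 5 gates, with the mean (line) and SD (bar) of 3 libraries. Mki67, Top2a, Ccna2 and Cenpf show the 3 tiers, Cdk1 shows them apart from 1 low Bst2+ library, Kif23 steps down through the 4 Bst2- gates, Cenpa is highest in FOXP3lo progenitors, and Ndc80 and Kif20b do not show the tiers.

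Most microtubule and pole proteins were lower in the FOXP3+ gates than in conventional cells, but not all showed the tiers in full. Prc1 and Aspm were lower in every CD25+ library than in any conventional one. Spag5 and Aurka overlapped between Bst2+ and conventional libraries. Against conventional cells 7 of 8 were called lower in FOXP3lo progenitors and 7 of 8 in mature Tregs, where 3.83% and 5.73% of all genes were. Tpx2, which activates Aurora A and seeds microtubules near chromosomes, measured 22.0, 20.3 and 19.8 CPM in conventional cells, 22.7, 19.99 and 18.5 in the CD25+ gate, 3.80, 7.99 and 7.62 in the FOXP3lo gate, and 8.99, 6.71 and 5.96 in mature Tregs. Nusap1, a microtubule bundler, measured 19.1, 13.3 and 19.3, then 13.4, 10.04 and 12.7, then 5.24, 4.75 and 4.22, then 5.08, 5.05 and 5.50 CPM in the same order of gates. Both were lower in every FOXP3lo and mature Treg library than in any conventional or CD25+ library. Tpx2 fell by 1.67 (± 0.25) and Nusap1 by 1.86 (± 0.31) in FOXP3lo progenitors. The others ranged from −1.45 for Hmmr and Aspm to −2.52 for Ckap2l in that comparison, with Aurka, at −1.26, not called over 15 libraries.

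Of the cytokinesis genes, Anln, which encodes the contractile ring scaffold anillin, measured 12.1, 7.67 and 12 CPM in conventional cells, 10.5, 5.30 and 6.83 in the CD25+ gate, 1.498, 1.79 and 3.89 in the FOXP3lo gate, and 3.16, 2.84 and 3.88 in mature Tregs. Ect2, the exchange factor that activates RhoA at the cleavage site, measured 13.9, 14.5 and 14.5 CPM, then 11.3, 9.44 and 10.6, then 7.37, 4.58 and 5.59, then 4.00, 5.47 and 4.98 in the same order. Ect2 was lower in every CD25+ library than in any conventional one, but the difference was not called (−0.45 ± 0.24, adjusted p = 0.324). Anln fell by 2.14 (± 0.43, adjusted p = 0.00363) and Ect2 by 1.29 (± 0.25, adjusted p = 0.00235) in FOXP3lo progenitors. Prc1, the midzone crosslinker, averaged 22.8 ± 1.65, 15.03 ± 2.63, 8.28 ± 1.90 and 7.79 ± 0.947 CPM from conventional cells to mature Tregs (n = 3 each).

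The proteins that shape chromosomes held the most abundant members. Per kilobase of exon and averaged over gates, Smc4 stood at 276 CPM, Mki67 at 23.5 and Top2a at 18.2. In conventional cells alone Top2a stood at 20.2 and Mki67 at 19.9. Mki67, which coats mitotic chromosomes and is the common marker of cycling cells, measured 211, 179 and 211 CPM in conventional cells, 234, 167 and 159 in the CD25+ gate, 64.1, 63.8 and 59.8 in the FOXP3lo gate, and 85.4, 51.7 and 66.7 in mature Tregs. Top2a, the topoisomerase that untangles sister chromatids, measured 191, 167 and 188 CPM, then 181, 151 and 135, then 54.8, 48.3 and 47.7, then 55.4, 40.2 and 48.3 in the same order. For both genes conventional and CD25+ libraries overlapped, as did FOXP3lo and mature Treg libraries, with a gap between. Mki67 was 1.58 ± 0.17 higher and Top2a 1.63 ± 0.14 higher (log2) in CD25+ than in FOXP3lo progenitors (adjusted p = 4.40e-06 and 3.68e-07).

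Smc4 was the exception among the 45 in level. In FOXP3lo progenitors it was higher than in conventional cells, as was Cenpa, where most members were lower. Smc4 encodes an ATPase that pairs with SMC2 as the core of condensin I and condensin II, the complexes that fold chromosomes for mitosis. Smc4 measured 711, 694 and 653 CPM in conventional cells, 891, 879 and 812 in the CD25+ gate, 2542, 2694 and 2735 in the FOXP3lo gate, 1818, 1877 and 1884 in mature Tregs, and 1252, 1073 and 1036 in Bst2+ cells. No 2 gates overlapped, and the FOXP3+ gates held the most. Smc4 made up 33.1 to 37.7% of the summed level of the 45 members in conventional libraries and 82.6 to 83.8% in FOXP3lo libraries. Against conventional cells it rose by 0.33 ± 0.07 in CD25+ progenitors (adjusted p = 0.00626), 1.95 ± 0.08 in FOXP3lo progenitors (adjusted p = 1.60e-10) and 1.44 ± 0.08 in mature Tregs (adjusted p = 8.96e-10). It was lower in mature Tregs than in FOXP3lo progenitors (−0.51 ± 0.07, adjusted p = 0.000379), while CD25+ exceeded conventional cells among Foxp3- gates. The interaction, that is, the difference with CD25 at FOXP3 minus that without FOXP3, was −0.84 ± 0.10 (adjusted p = 0.000166), the only 1 called among the 45 members, where 1.16% of all genes were called negative and 1.19% positive. The 2 gates with FOXP3 differ in Foxp3 level as well as in CD25, which cannot be told apart in this value. Without the Bst2+ libraries the interaction was also called for Kif23 (0.83, adjusted p = 0.0106), with 5.46% of genes called positive and 5.39% negative.

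The other condensin subunits that were read, named below, did not share the rise of Smc4. Its partner Smc2 measured 93.1, 81.0 and 90.0 CPM in conventional cells, 93.2, 90.5 and 81.9 in the CD25+ gate, 50.3, 53.2 and 58.5 in the FOXP3lo gate, and 56.3, 57.0 and 60.7 in mature Tregs. Ncapd2, a condensin I subunit, measured 91.5, 83.6 and 95.1, then 85.3, 84.1 and 92.1, then 61.6, 58.1 and 55.0, then 57.2, 49.0 and 50.6 CPM in the same order. Both lay in the tiers of the other members. Smc2 changed by −0.71 ± 0.11 (adjusted p = 0.000524), Ncapd2 by −0.63 ± 0.11 (adjusted p = 0.00135) and Ncapg by −1.77 ± 0.40 (adjusted p = 0.00870) in FOXP3lo progenitors against conventional cells. Outside the 45, Ncaph of condensin I changed by −0.88 ± 0.25 (adjusted p = 0.0378) and Ncapg2 of condensin II by −1.24 ± 0.24 (adjusted p = 0.00229), while Ncapd3 of condensin II averaged 102 ± 11.3 CPM in conventional cells and 93.2 ± 2.73 in FOXP3lo progenitors (n = 3 each; −0.13 ± 0.15, adjusted p = 0.811).

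Smc4 lies on chromosome 3 of GRCm38, from 69004738 to 69034623 on the plus strand, and its neighbour Ift80, on the minus strand, ends 167 bases before it, so the 2 genes start head to head. Ift80 encodes a protein that carries cargo along cilia and has no role in the list. It was looked up as the neighbour of Smc4 after the values of Smc4 were seen. Ift80 measured 187, 173 and 167 CPM in conventional cells, 247, 241 and 214 in the CD25+ gate, 837, 931 and 922 in the FOXP3lo gate, 707, 682 and 723 in mature Tregs, and 191, 217 and 161 in Bst2+ cells. Its gates stood in the order of Smc4 among the 4 Bst2- gates, without overlap, while in Bst2+ cells it overlapped with conventional cells. Ift80 changed by 2.35 ± 0.10 in FOXP3lo progenitors (adjusted p = 4.41e-10) and by 2.00 ± 0.10 in mature Tregs (adjusted p = 6.38e-10) against conventional cells, with an interaction of −0.76 ± 0.14 (adjusted p = 0.00456). Trim59, which follows Smc4 on the other strand, changed by 1.16 ± 0.23 in FOXP3lo progenitors (adjusted p = 0.00266). Reads were counted by strand, and Smc4, Ift80 and Trim59 do not overlap. Mir15b and Mir16-2 lie within Smc4 on its strand. Mir16-2 averaged 1.33 CPM in conventional cells and 4.87 in FOXP3lo progenitors, and Mir15b 0.0386 and 0.471.

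**Figure D3:**
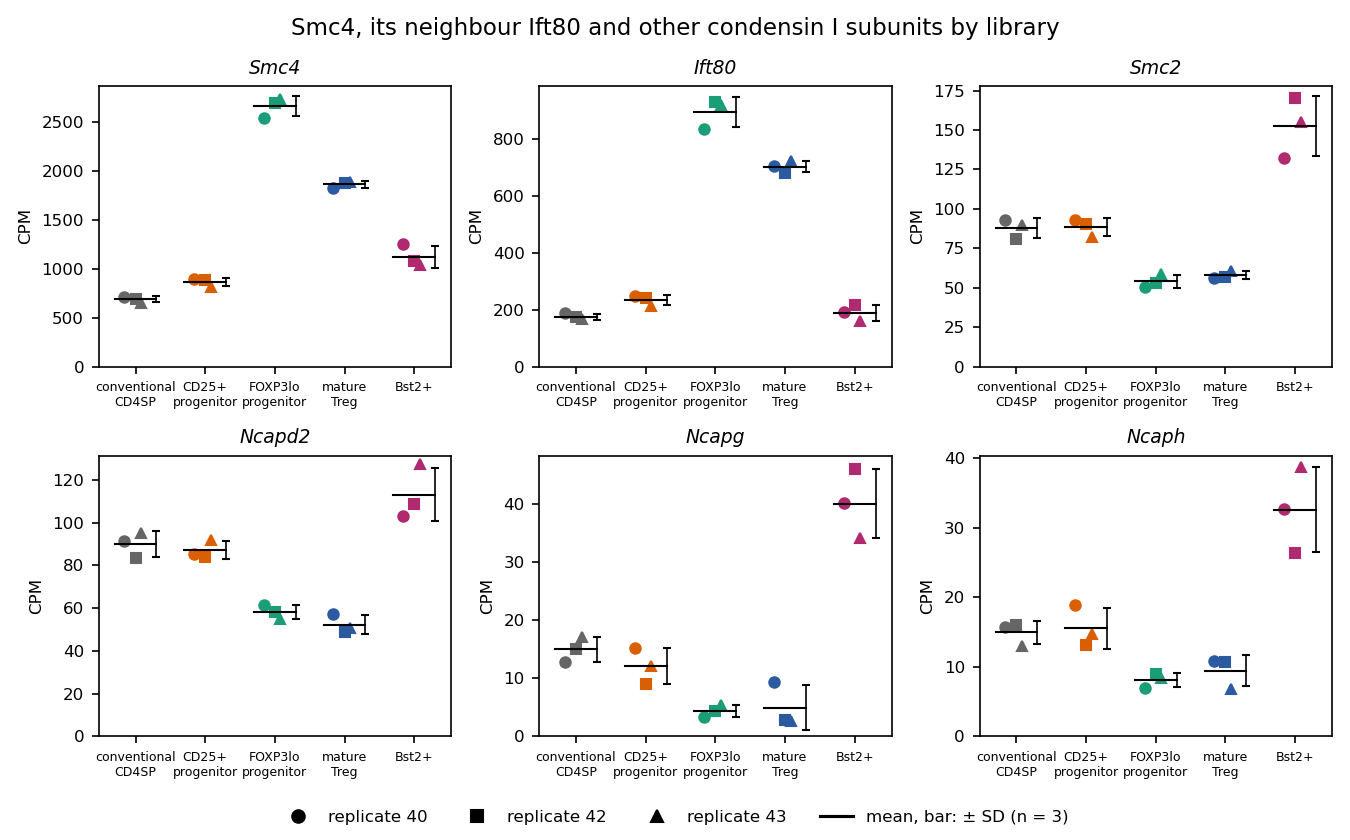
CPM of Smc4, its head-to-head neighbour Ift80 and the condensin I subunits Smc2, Ncapd2, Ncapg and Ncaph in each library (points, shape by replicate number), with mean (line) and SD (bar) of 3 libraries per gate. Smc4 and Ift80 are highest in FOXP3lo progenitors, where the 4 other genes average less than in conventional cells.

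Bst2+ cells held the highest levels of nearly the whole list. Against conventional cells 30 members were called higher and 0 lower (median 1.29), where 13.5% of all genes were called higher and 15.6% lower. Of the 45 members, 0 were lower also at an unadjusted p under 0.05, and by DESeq2. Their libraries lay above all conventional libraries for 35 members and below for 0, against 14.6% and 21.6% of all genes. Mki67 measured 753, 694 and 541 CPM in Bst2+ cells, Top2a 316, 449 and 382, and Birc5 37.4, 40.3 and 46.5, all above every library of the other gates. Against conventional cells Mki67 rose by 1.72 ± 0.17 (adjusted p = 2.75e-06) and Birc5 by 1.75 ± 0.26 (adjusted p = 0.000119).

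Against the mean of CD25+ progenitors, FOXP3lo progenitors and mature Tregs, 42 members were called higher in Bst2+ cells and 1, Smc4, lower (median 2.42), where 19.3% of genes were called higher and 19.8% lower. Cenpa and Melk were not called. The replicates of the Bst2+ gate differed more than those of the other gates for some members: Ccnb1 measured 3.93, 31.8 and 11.6 CPM, Aurka 2.20, 20.2 and 17.2, and Cdk1 6.23, 31.3 and 24.5. For these 3 genes library 40 was the low one. Library 40 was not low throughout, since Hmmr measured 58.0, 16.7 and 30.9 CPM and Nusap1 86.9, 40.6 and 34.7. The biological coefficient of variation of the members was lowest for the conventional gate (0.152), 0.207 for the CD25+ gate, 0.251 for the FOXP3lo gate, and highest for the mature (0.389) and Bst2+ (0.392) gates. The Bst2+ libraries also carried the macrophage, B cell and immature thymocyte markers given above, and markers of NKT, gamma-delta and innate-like T cells that summed to 87.5 to 249 CPM, against at most 43.7 in any other library. They had 14685 to 17198 genes with a count, against 18355 to 23382 in the other gates. The part of these differences in the levels of the members was not tested. The summed immature thymocyte markers were second highest in CD25+ progenitors, which hold more of the members than FOXP3lo progenitors. Single markers went both ways. Without the Bst2+ libraries 9 of 12 were called higher and 2 lower in CD25+ than in FOXP3lo progenitors (19.9% and 19.7% of genes). Against conventional cells 6 were called higher and 3 lower (14.7% and 14.3% of genes). The part of these markers in the levels of the members was not tested either.

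Other genes of the cycle were read from lists chosen with earlier results of these data in view. Of 59 further G2 and mitosis genes, 16 were called lower in FOXP3lo progenitors (median −1.28), 18 in mature Tregs (median −1.11) and 2 in CD25+ progenitors (median −0.12), all against conventional cells, where 3.83%, 5.73% and 5.66% of all genes were called lower. By the same edgeR test 0 of the 59 were called higher in these 3 comparisons, and 0, 0 and 3 were higher at an unadjusted p under 0.05. Of the 59, 38, 34 and 4 were called lower and 0, 0 and 3 higher without the Bst2+ libraries. In that fit 12.3%, 15.3% and 14.3% of all genes were called lower, and 12.8%, 15.1% and 14.7% higher. Pbk, a kinase of mitotic cells, averaged 4.47 ± 0.562 CPM in conventional cells and 0.332 ± 0.382 in FOXP3lo progenitors (n = 3 each; −3.71 ± 0.64, adjusted p = 0.000952). In CD25+ progenitors the 2 lower genes were Hjurp and Cdc25b, a phosphatase that activates CDK1. The 15 subunits of the anaphase-promoting complex are needed in mitosis but are made in resting cells too. By edgeR they gave 0 calls in FOXP3lo progenitors (median −0.02) and 0 in mature Tregs (median 0.01) against conventional cells. Of all genes, 3.83% and 5.73% were called lower and 4.88% and 6.45% higher there, shares at which few of 15 genes would be called. At an unadjusted p under 0.05, 1 and 3 subunits were lower and 0 higher. In the fit without the Bst2+ libraries 1 subunit was called higher and 1 lower in FOXP3lo progenitors, and 1 higher and 3 lower in mature Tregs.

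The G1/S and DNA replication genes, which act before the 45 members, were ordered differently. In CD25+ progenitors 9 of 35 were called higher than in conventional cells (median 0.46), and 0 lower by edgeR, also at an unadjusted p under 0.05. The members had a median of −0.25 there, and 5.98% of all genes were called higher. Of the 35, 16 were called higher and 1 lower without the Bst2+ libraries, where 14.7% and 14.3% of all genes were. Mcm6, a subunit of the replicative helicase, averaged 89.0 ± 7.56 CPM in conventional cells and 183 ± 4.63 in the CD25+ gate (n = 3 each; 1.04 ± 0.17, adjusted p = 0.000456). Uhrf1, which keeps DNA methylation through replication, averaged 38.2 ± 9.34 CPM in conventional cells, 77.0 ± 9.35 in the CD25+ gate, 8.89 ± 1.24 in the FOXP3lo gate and 24.1 ± 0.578 in mature Tregs (n = 3 each). In FOXP3lo progenitors 20 of 35 were called lower (median −0.97), and in mature Tregs 6 of 35 (median −0.37), where 3.83% and 5.73% of all genes were. These counts were 32 and 16 without the Bst2+ libraries (12.3% and 15.3% of genes), and 1 of the 35 was called higher in mature Tregs (15.1% of genes). Mature Tregs exceeded FOXP3lo progenitors in 8 of 35 (median 0.55, with 2.51% of all genes called higher), and in 16 without the Bst2+ libraries (9.37% of genes). In both fits of that comparison 0 were lower by edgeR, also at an unadjusted p under 0.05. Of the 45 members, 0 were called higher there over 15 libraries and 1 without the Bst2+ libraries, 1 was higher at an unadjusted p under 0.05 and 0 were higher by DESeq2. Whether the lists differ from each other was not tested.

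**Figure D4:**
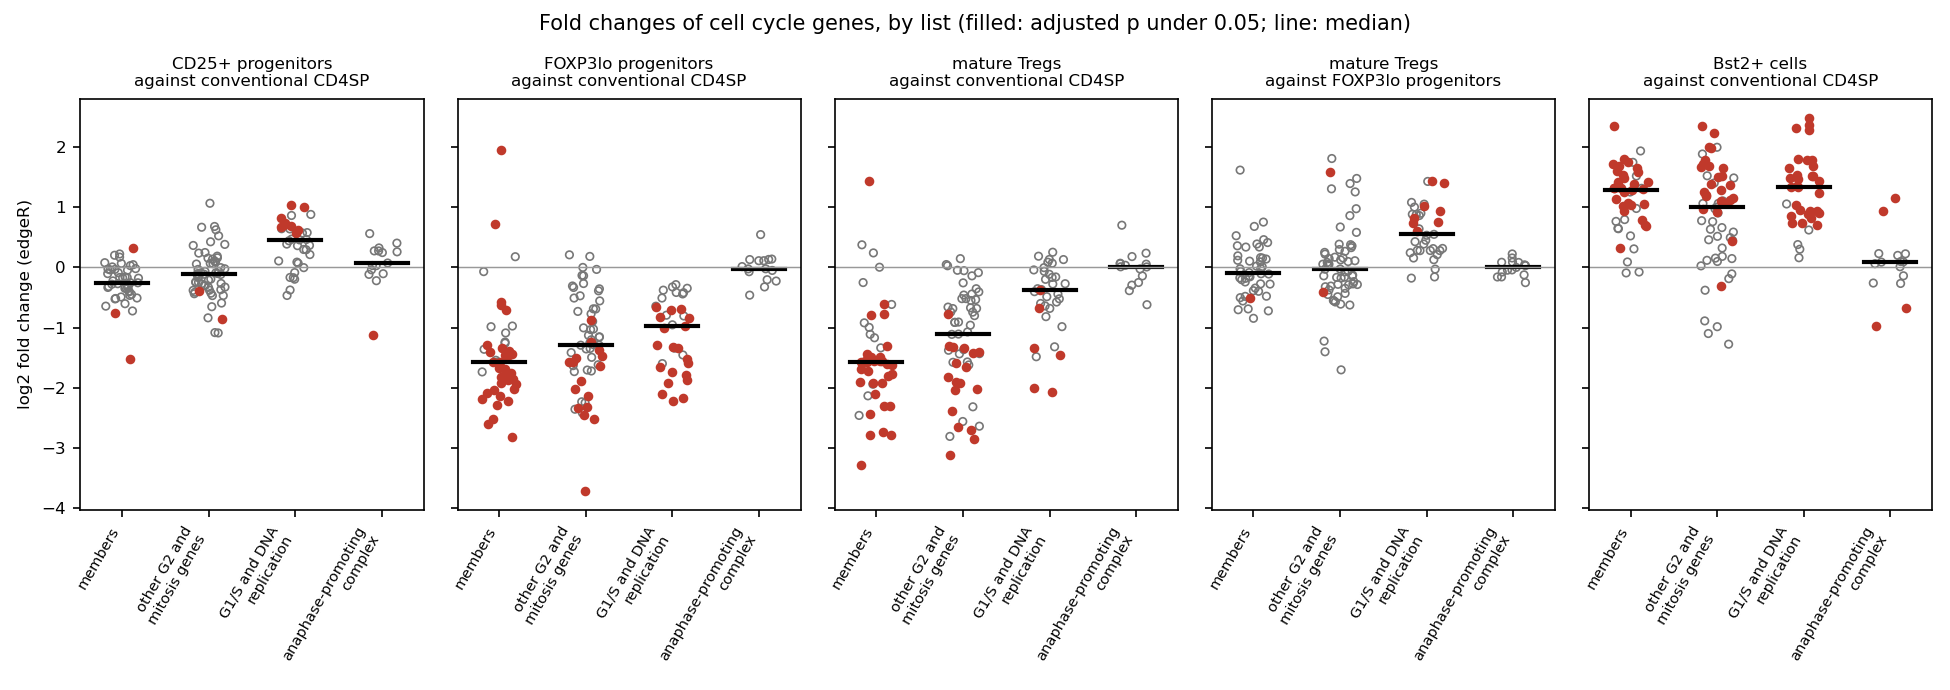
Log2 fold changes of single genes (points, filled where the adjusted p is under 0.05; line, median) for the 45 members, 59 other G2 and mitosis genes, 35 G1/S genes and 15 subunits of the anaphase-promoting complex in 5 comparisons. In CD25+ progenitors the G1/S median is 0.46 and that of the members −0.25, and between mature Tregs and FOXP3lo progenitors they are 0.55 and −0.09.

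Of 14 genes for regulators of the G2 and mitosis program, activators and repressors alike, 1 was called lower in FOXP3lo progenitors than in conventional cells. Of all genes tested, 3.83% were called lower there. The 1 gene was Tfdp1, the DNA-binding partner of the E2F factors (−1.28 ± 0.14, adjusted p = 9.66e-06). It averaged 62.3 ± 1.30 CPM in conventional cells, 91.4 ± 1.6 in the CD25+ gate, 25.6 ± 1.39 in the FOXP3lo gate and 34.4 ± 5.70 in mature Tregs (n = 3 each). Foxm1, the activator of G2 genes, averaged 16.5 ± 1.33 CPM in conventional cells and 10.6 ± 3.73 in FOXP3lo progenitors. It was not called over 15 libraries (−0.64 ± 0.38, adjusted p = 0.444), but was called lower without the Bst2+ libraries (adjusted p = 0.0290). In that fit 4 of the 14 were called lower and 2 higher, with 12.3% and 12.8% of all genes called. Among 15 tested G1 cyclins, CDKs and CDK inhibitors, 3 were called higher and 2 lower in FOXP3lo progenitors than in conventional cells, where 4.88% of all genes were called higher and 3.83% lower. The counts were 6 and 4 without the Bst2+ libraries (12.8% and 12.3% of all genes). The 3 higher genes were Rb1, the retinoblastoma protein that holds E2F in check (1.20 ± 0.10, adjusted p = 8.70e-07), Btg1, an antiproliferative factor (0.86 ± 0.07, adjusted p = 2.75e-07), and Cdkn1b, the CDK inhibitor p27 (0.68 ± 0.12, adjusted p = 0.00112). The 2 lower genes were Cdk4, a kinase that drives cells through G1 (−0.79 ± 0.15, adjusted p = 0.00183), and Cdkn2c, the CDK inhibitor p18 (−1.95 ± 0.59, adjusted p = 0.0494).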

How the data were processed

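Total RNA from 15 sorted libraries (5 gates, 3 each) was sequenced after a stranded kit, per the labels' protocols. The values deposited by the authors are raw counts of read pairs per Ensembl gene, made with featureCounts 1.6.2 on the Ensembl 97 gene models (GRCm38), per the file headers; pairs needed both mates aligned, a quality of 10 or more and the reverse strand. Per the submitters' processing notes, Trimmomatic 0.33 and HISAT2 2.1.0 were used, and the counter is given there as featureCounts 1.4.6. 0 value columns had no sample and 0 entries named no gene.

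Identifiers were named by overlap of position with RefSeq (GRCm38.p6), 36681 of 55573 in all; genes with copies elsewhere lose pairs to the mapping filter. Counts were filtered (filterByExpr), TMM-scaled and fitted with 5 gate means by edgeR 4.0.16 (quasi-likelihood, robust) in R 4.3.3, with Benjamini-Hochberg adjustment over 16069 genes. limma 3.58.1, DESeq2 1.42.0, other scalings and filters, a replicate block, and fits without 1 library or without Bst2+ libraries were alternatives. The code was tested on simulated data.

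Members and lists were chosen with earlier results of these data known. Named genes were those that carry each role, those with the smallest adjusted p or the most extreme fold, those against the trend, and those not called where most were. Same-numbered libraries were treated as paired in the block because the series names 3 biological replicates for 15 libraries; in the data, same-numbered residuals correlated between −0.0160 and 0.0423 (mean 0.0107 over 30 pairs). No 2 libraries of the same gate were copies (chi-square per degree of freedom between replicates, 7.63 to 89.1).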

Additional observations from a re-analysis of the deposited data

Results flagged for a closer look

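For Smc4 the difference between CD25+ and CD25- gates was not the same with and without FOXP3, by a test of that difference itself: the interaction was −0.84 (log2, edgeR, adjusted p = 0.000166). CD25+ progenitors exceeded conventional cells by 0.33 ± 0.07, whereas mature Tregs stood 0.51 lower than FOXP3lo progenitors (−0.51 ± 0.07). Mature Tregs and FOXP3lo progenitors differ in Foxp3 level (598 and 290.0 CPM) as well as in CD25, and the 2 cannot be told apart here. Each of the 3 libraries of a gate lay on the same side in both comparisons.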

How the results depend on the processing

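No member called in a comparison changed sign there under any alternative run (0 of 5283 values), while of 5157 values of members not called, 130 had the other sign. Of all these values, 9938 stayed on their side of the threshold, 319 lost and 183 gained a call. A test against a fold of 1.5 lowered the called members from 3 to 1 (CD25+ against conventional), 34 to 20 (FOXP3lo against conventional), 32 to 21 (mature against conventional), 32 to 16 (CD25+ against FOXP3lo), 30 to 15 (mature against CD25+), 1 to 0 (mature against FOXP3lo), 30 to 16 (Bst2+ against conventional) and 1 to 0 (interaction). Without the Bst2+ libraries the calls became 5 in CD25+ against conventional cells, 4 in mature Tregs against FOXP3lo progenitors and 2 in the interaction. By DESeq2 these first 2 comparisons gave 5 and 2, and by limma-voom with library weights 10 and 3.

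With the replicate number as a block, 2 members rather than 1 were called between mature Tregs and FOXP3lo progenitors; the other counts stayed within 1.5 times. Single calls lost under the block were Cenpa and Spag5 (FOXP3lo against conventional) and Cdk1 and Plk1 (Bst2+ against conventional), and those gained were Kif23 (mature against FOXP3lo) and Hmmr (CD25+ against FOXP3lo, mature against CD25+).

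Leaving out 1 library at a time gave 2 to 5 called members in CD25+ against conventional cells (5 without Bst2+ library 40), 26 to 38 in FOXP3lo and 26 to 35 in mature against conventional cells, 23 to 36 in CD25+ against FOXP3lo, 23 to 34 in mature against CD25+, and 1 to 3 in mature against FOXP3lo (2 without mature Treg 40, Bst2+ 40 or Bst2+ 42, and 3 without Bst2+ 43). The ranges were 23 to 35 in Bst2+ against conventional cells, 43 to 44 against the 3 other gates and 1 to 1 for the interaction. Ccnb1 had no count in mature Treg library 43 and Aurkb none in mature Treg library 42. A count of 0 allows up to 3 counts, or 0.194 and 0.208 CPM in these libraries. Promoter motifs were planned and not run, because promoter sequences were not used here.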
